A study of Mus musculus with 64 samples.

Results

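The comparison described here is liver from mice labelled KO against liver from wild-type mice labelled CTRL, both kept on chow. It uses 8 of the 64 libraries of a series that sampled 4 tissues, 2 genotypes and 2 diets. The 4 labelled KO and 4 CTRL chow libraries were chosen by their tissue, genotype and diet labels alone. All animals were male C57BL/6 mice, killed at 16 weeks of age. The mutant is given in the labels as Pklr-/-, with no further description of the allele, and the labels do not say whether controls were littermates. The liver libraries of the same genotypes on a high-sucrose diet (HSD), fed for 8 weeks from 8 weeks of age, are used only to show where the chow comparison differs, again with 4 labelled KO and 4 CTRL libraries. The labels name 8 wild-type and 8 mutant mice in all, so each liver library stands for 1 animal.

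Pklr encodes the pyruvate kinase of liver and red blood cells, which makes pyruvate and ATP in the last step of glycolysis. The level of its transcript did not follow the label: it was higher in the libraries labelled KO. The level of Pklr in TPM, a read share corrected for transcript length, was 245.8, 267.6, 186.7 and 146.8 in the labelled KO chow libraries and 61.59, 138.9, 141.2 and 110.3 in the CTRL chow libraries. Every labelled KO library was above every CTRL library, and the log2 fold change was 1.07 ± 0.26 (SE, n = 4 per group). A value per gene does not show which part of a transcript was deleted, so it cannot serve as a test of the allele, and the groups are called by their labels throughout. Pkm, the muscle-type pyruvate kinase, was near 5 TPM, with 4.745 ± 1.95 in labelled KO and 5.525 ± 1.05 in CTRL (SD, n = 4), and the groups overlapped.

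The acute phase response is the switch by which hepatocytes, under interleukin-6 and interleukin-1, secrete large amounts of serum amyloid A, haptoglobin and related proteins while albumin output drops. The unfolded protein response is the programme that raises chaperones and disulphide isomerases of the endoplasmic reticulum (ER) when protein folding in that compartment is overloaded. Its transcription factors ATF6 and XBP1 act through the ER stress response element (ERSE), and several acute phase genes are classical targets of C/EBP factors. Genes of both groups had different means in the chow groups, the acute phase ones being lower and the ER folding ones higher in labelled KO.

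Promoters of some genes from both groups are printed because most of their listed members differed in the same direction between the chow groups. Every gene printed holds a match to the motif searched in its group, while most listed members with a window do not. Each run is the 250 bases before a RefSeq transcription start in GRCm38.p6, read 5′ to 3′ on the gene's strand, with motif matches in capitals. The ERSE was searched as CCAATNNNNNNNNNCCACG on both strands. The windows lie at chr2:34771840-34772089 (plus strand) for Hspa5, chr15:88819396-88819645 (plus) for Creld2, chr10:86705445-86705694 (minus) for Hsp90b1 and chr12:17266339-17266588 (plus) for Pdia6.
Hspa5: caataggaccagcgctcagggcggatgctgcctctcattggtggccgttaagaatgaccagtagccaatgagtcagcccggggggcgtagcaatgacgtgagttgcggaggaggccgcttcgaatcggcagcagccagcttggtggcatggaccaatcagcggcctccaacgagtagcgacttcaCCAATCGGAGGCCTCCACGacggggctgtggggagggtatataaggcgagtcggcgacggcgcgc
Creld2: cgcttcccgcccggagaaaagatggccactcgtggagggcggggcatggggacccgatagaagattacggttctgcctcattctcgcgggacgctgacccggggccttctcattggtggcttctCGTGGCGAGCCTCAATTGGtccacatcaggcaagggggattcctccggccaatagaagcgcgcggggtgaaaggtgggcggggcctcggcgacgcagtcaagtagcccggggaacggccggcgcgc
Hsp90b1: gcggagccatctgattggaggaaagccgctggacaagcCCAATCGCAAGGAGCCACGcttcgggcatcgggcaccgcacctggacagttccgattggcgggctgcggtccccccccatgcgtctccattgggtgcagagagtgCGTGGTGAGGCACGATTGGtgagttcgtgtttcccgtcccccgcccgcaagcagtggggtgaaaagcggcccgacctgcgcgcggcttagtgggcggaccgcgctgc
Pdia6: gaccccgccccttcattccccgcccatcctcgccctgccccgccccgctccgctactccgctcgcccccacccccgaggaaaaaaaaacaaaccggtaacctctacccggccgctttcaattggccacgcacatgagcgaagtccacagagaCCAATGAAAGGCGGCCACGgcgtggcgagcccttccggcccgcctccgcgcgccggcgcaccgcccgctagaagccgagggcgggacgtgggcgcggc

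The ERSE match began 65 bases before the start in Hspa5, 126 in Creld2 and 98 in Pdia6, and Hsp90b1 held 2 matches, at 212 and 107 bases. Of the 30 tested genes in the list of ER folding and unfolded protein response genes, 25 had a promoter window and 9 of those (36%) held an ERSE. Those 9 were Calr, Canx, Creld2, Derl3, Dnajc3, Hsp90b1, Hspa5, Pdia6 and Syvn1. Among all 27025 genes with a window, 35 (0.13%) held one. Among the 8983 tested genes with a window, 15 (0.167%) did. A match is a match of letters only. The list was defined by a response whose factors act through the ERSE, so its share of matches does not bear on the chow difference.

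For the acute phase genes, the C/EBP core was searched as TTGNNCAA, which reads the same on both strands. It was found in 8 of the 20 tested acute phase genes with a window (40%) and in 1758 of all 27025 genes (6.51%). As several acute phase genes are classical C/EBP targets, this share does not bear on the chow difference either. The windows of Saa1 at chr7:46742981-46743230 (minus) and Lcn2 at chr2:32387740-32387989 (minus) are shown because both are acute phase genes with large differences among the control libraries. The capitals mark the match, which begins 182 bases before the start in Saa1 and 216 in Lcn2.
Saa1: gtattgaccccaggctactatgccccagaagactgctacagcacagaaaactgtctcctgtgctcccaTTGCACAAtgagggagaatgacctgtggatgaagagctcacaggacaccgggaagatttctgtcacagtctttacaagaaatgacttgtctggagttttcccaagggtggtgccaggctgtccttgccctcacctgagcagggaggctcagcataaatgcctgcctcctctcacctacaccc
Lcn2: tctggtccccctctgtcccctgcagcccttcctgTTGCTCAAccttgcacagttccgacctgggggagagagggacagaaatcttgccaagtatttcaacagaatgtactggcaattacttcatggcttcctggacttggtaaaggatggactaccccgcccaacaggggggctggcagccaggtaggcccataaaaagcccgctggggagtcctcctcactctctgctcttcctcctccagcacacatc

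The 8 chow libraries held 6714622 to 7940378 estimated counts in labelled KO and 8211776 to 10093497 in CTRL, so the labelled KO libraries were all shallower. The share of counts from mitochondrial DNA was 8.91% to 10.17% in labelled KO and 6.23% to 8.624% in CTRL, also without overlap. Hepatocyte markers were abundant in every library, with a summed level of 66230 to 83290 TPM over 12 genes in labelled KO and 36790 to 77030 in CTRL. Of the 11259 genes tested, edgeR's quasi-likelihood test called none (0%) at an adjusted p under 0.05, with 702 higher in labelled KO (6.24% of tested genes) and 675 lower (6%) at an unadjusted p under 0.05. DESeq2 called 87 higher and 66 lower of 6673 genes with an adjusted p (2.29%). By limma on log2(TPM + 1), 361 genes were higher and 800 lower at p under 0.05, with a median over all genes of -0.06 against -0.01 in edgeR. In TPM the groups did not overlap for 191 genes with labelled KO higher (1.7%) and 388 with labelled KO lower (3.45%). Since edgeR called nothing, the differences below are given as values, and counts of genes at an unadjusted p under 0.05 are read against these shares.

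Acute phase transcripts were on average less abundant in labelled KO, and their levels differed widely among the 4 control libraries. Over 10 of them, the mean log2 CPM (library-scaled counts) was 11.65 in CTRL replicate 1, 8.83 in replicate 3, 6.99 in replicate 4 and 5.86 in replicate 2. The 4 labelled KO libraries lay between 5.67 and 6.15, so replicate 2 sat inside their range and the other 3 controls above it. On HSD the same mean was 5.48 to 6.17 in labelled KO and 5.6 to 7.71 in CTRL. The summed level of all 26 listed acute phase genes reached 180500 TPM in the highest chow control, against 14340 to 17560 in labelled KO. TPM is a share of a library total, so a high acute phase sum leaves a smaller share for all other genes together. This also enters the summed marker levels and the overlap of groups, which use TPM, and its size for single genes was not tested. Over all tested genes, the mean log2(TPM + 1) was 3.22, 3.25, 3.14 and 3.09 in CTRL chow replicates 1 to 4. In labelled KO chow replicates 1 to 4 it was 2.96, 3.11, 3.19 and 3.15.

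Saa2, the inducible serum amyloid A paralog of Saa1 with which it can share reads, was at 32.89, 22.56, 13.39 and 30.39 TPM in labelled KO. In CTRL replicates 1 to 4 it was at 39800, 29.42, 2950 and 210.6 TPM. Replicate 2 was thus within the labelled KO range while replicate 1 exceeded it by orders of magnitude. Orm2, encoding an orosomucoid that binds drugs and lipids in plasma, was at 14.41, 15.31, 12.9 and 20.16 TPM in labelled KO and 5810, 10.2, 264 and 24.3 TPM in CTRL. Hp, encoding the haemoglobin-binding haptoglobin, was at 1032, 1598, 1927 and 2134 TPM in labelled KO and 19370, 2018, 4318 and 2529 TPM in CTRL. The order of the control replicates was the same in these 3 genes, and 2 lay lowest.

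CTRL replicate 1 was the highest of the 8 chow libraries in 25 of 25 tested acute phase genes. Replicate 3 was the second highest in 20 of them. Replicate 2 fell within the range of the labelled KO libraries in 11 genes and below it in 5. All 25 genes had a lower fitted mean in labelled KO, 20 of them at p under 0.05. The median log2 fold change was -1.42 against -0.01 over all genes. The spread in that fit came from all liver libraries, and acute phase levels varied most in CTRL chow. The SD of the mean log2 CPM above was 2.53 there, against 0.201 to 1.01 in the other groups. The count at p under 0.05 was 15 in a fit to the 8 chow libraries alone. It was 13 by limma on log2(TPM + 1) and 9 by limma voom with library quality weights. It was 20 by DESeq2, 22 with a score of clock genes as covariate, and 23 without CTRL replicate 2 or 4. Fold sizes ran from -8.63 ± 2.25 for Saa2 to -0.05 ± 0.17 for Crp, the C-reactive protein gene. DESeq2 called 5 of the 25: Saa1, Saa2, Lcn2, Orm2 and Serpina3n.

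The groups did not overlap for only 5 acute phase genes: Il1rn, Lcn2, Serpina3n, Itih4 and Steap4. Il1rn, encoding the interleukin-1 receptor antagonist, was at 1.589, 1.541, 1.835 and 1.03 TPM in labelled KO and 11.82, 1.973, 2.367 and 2.006 TPM in CTRL. Its margin over the labelled KO libraries was small in 3 of the 4 controls. Serpina3n, a secreted serine protease inhibitor, was at 189.1, 232, 222.2 and 240.1 TPM in labelled KO and 1061, 266.5, 452.5 and 308.6 TPM in CTRL.

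Without CTRL replicates 1 and 3, 17 acute phase genes had a lower mean in labelled KO and 8 a higher one, and the median log2 fold change was -0.12. Only Il1rn stayed at p under 0.05 in that refit, with a log2 fold change of -0.8. In that refit 438 of 11521 genes were higher (3.8%) and 441 lower (3.83%) at p under 0.05. Leaving out replicate 1 alone gave a median of -0.54 with 10 genes at p under 0.05. The size of the acute phase difference on chow thus depended on CTRL replicates 1 and 3. They were the controls with the highest acute phase levels, so a smaller difference without them followed from leaving them out. In Saa1, replicate 4 also stood apart, at 675.5 TPM against 40.4 to 85.13 in labelled KO.

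**Figure D1:**
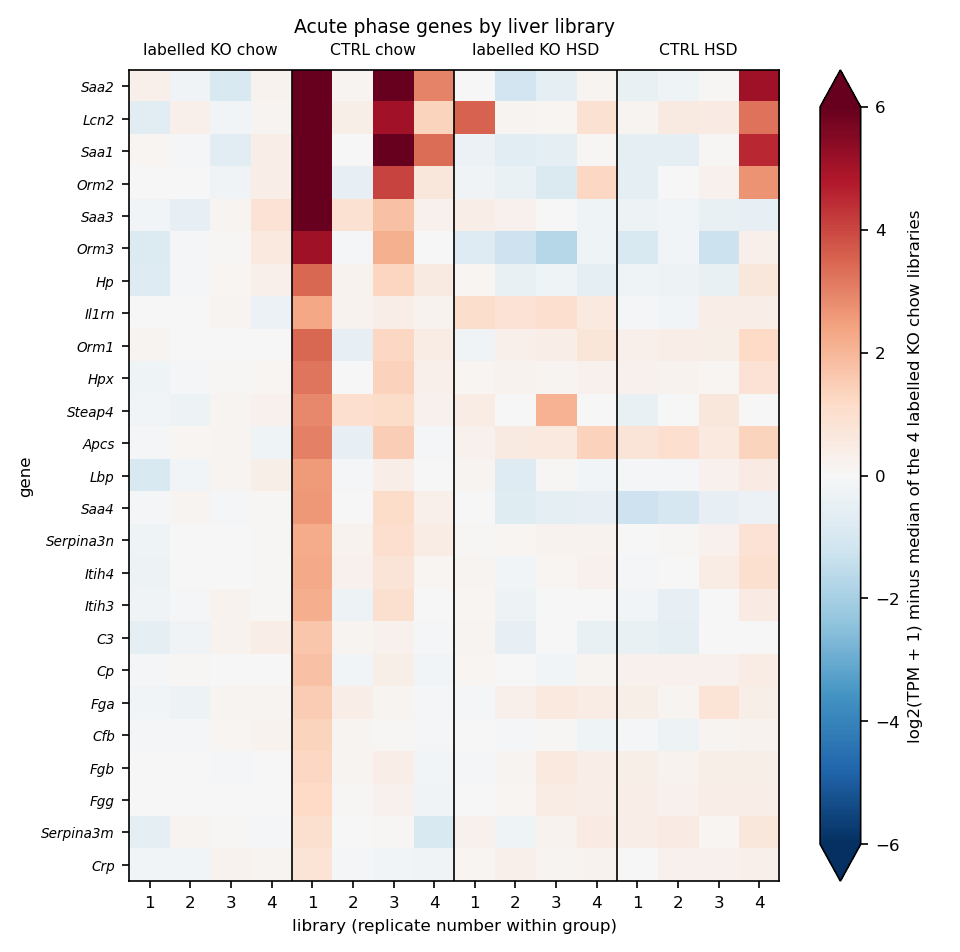
Each row is 1 of the 25 tested acute phase genes and each column 1 liver library, and colour gives log2(TPM + 1) minus the median of the 4 labelled KO chow libraries, with the scale clipped at both ends. CTRL chow replicate 1 is high in all rows, replicate 3 in most, and replicate 2 is close to the labelled KO libraries.

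Of 14 metal handling genes, 4 were lower and 1 higher at p under 0.05, with a median of -0.13, and CTRL replicates 1 and 3 were both above all labelled KO libraries in 4. Mt1 and Mt2, the zinc-binding metallothioneins, had the smallest means in labelled KO relative to CTRL on this list. Mt1 was at 2.984, 16.16, 18.65 and 15.15 TPM in labelled KO and 1600, 26.22, 344.7 and 14.76 TPM in CTRL. Mt2 was at 2.323, 14.47, 8.145 and 10.76 TPM in labelled KO and 2104, 11.73, 379.8 and 15.66 TPM in CTRL. Their log2 fold changes of -5.14 ± 1.26 and -6.05 ± 1.45 became -0.57 and -0.62 without CTRL replicates 1 and 3.

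Of 27 tested inflammatory signalling genes, 10 were lower and 1 higher at p under 0.05, with a median of -0.5. Stat3, the transcription factor that carries the interleukin-6 signal, was at 15.58, 21.76, 22.48 and 23.42 TPM in labelled KO and 54.52, 24.65, 38.78 and 30.08 TPM in CTRL. Its groups did not overlap, but control replicate 2 lay close to the labelled KO libraries, and its log2 fold change of -0.76 ± 0.2 became -0.35 without replicates 1 and 3. Lrg1, a secreted leucine-rich glycoprotein induced with the acute phase, was at 38.32, 62.87, 56.73 and 88 TPM in labelled KO and 682, 103.5, 239.9 and 172 TPM in CTRL. Lrg1 was lower by 2.23 ± 0.46 on the log2 scale with all libraries and by 1.16 without those 2. Over the list, 1 lower gene (Lrg1) and 1 higher gene remained at p under 0.05 in that refit, with a median of -0.21. The higher gene was Jak2, the kinase that signals from the growth hormone and interferon receptors, at a log2 fold change of 0.38 ± 0.13 with all libraries.

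Among 16 complement genes, 4 were lower and 2 higher at p under 0.05. C4b, a component of the classical pathway, was at 170.5, 220.3, 221.5 and 232.3 TPM in labelled KO and 677, 240.1, 439 and 328.8 TPM in CTRL. C8g and Mbl2 were higher in labelled KO at 0.34 ± 0.11 and 0.36 ± 0.11, and at 0.36 and 0.33 without CTRL replicates 1 and 3.

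CTRL replicate 1 was the lowest control in 6 of the 10 listed negative acute phase genes and below all labelled KO libraries in 4. Alb, encoding albumin, was at 42260, 48460, 52100 and 48880 TPM in labelled KO and 11570, 46240, 38170 and 30180 TPM in CTRL. The lowest control was the library with the highest serum amyloid level, and replicate 2 overlapped labelled KO. Of the 10 listed genes, Alb, Ttr and Apoa2 were higher in labelled KO at p under 0.05, and the median of 0.08 was close to that of all genes.

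Markers of Kupffer cells, the resident macrophages of liver, were lower in labelled KO in 12 of 14 genes, 6 of them at p under 0.05, with a median of -0.45. Their summed level was 142.6 to 307 TPM in labelled KO and 210.7 to 392.1 TPM in CTRL. Clec4f, the lectin most specific to these cells, was at 18.15, 21.11, 34.88 and 30.83 TPM in labelled KO and 44.45, 26.96, 48.18 and 28.27 TPM in CTRL. Both labelled KO replicates 1 and 2 were low, and the 2 controls with the most acute phase transcript were high. Without those controls 7 markers were higher and 7 lower, none at p under 0.05, and the median was 0.08. In bulk tissue, fewer cells of a type and less RNA per cell cannot be told apart. Neutrophil and monocyte markers summed to 1.957 to 6.391 TPM in labelled KO and 4.319 to 27.62 in CTRL, with Ly6g and Camp at 0 in all chow libraries, and their part in the acute phase difference was not tested. The 7 listed adipocyte markers summed to 1864 to 2524 TPM in labelled KO and 256 to 1467 in CTRL. Adipoq, Lep, Plin1 and Retn were near the floor, at no more than 1.398 TPM in any chow library. Nearly all of the sum thus came from Cfd, Fabp4 and Car3, the only 3 of the 7 that passed the filter on low counts. None of these 3 was at p under 0.05, and the sum is no measure of fat cells.

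The ER folding genes had higher means in labelled KO, with and without the control libraries high in acute phase transcripts. Of 30 genes, 26 had a higher mean in labelled KO, 14 at p under 0.05 and none lower, with a median of 0.37. DESeq2 called 5 of them, all higher: Hspa5, Manf, Creld2, Sel1l and Hyou1. The chow groups did not overlap for 5, namely Hspa5, Manf, Creld2, Hyou1 and Selenos.

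Hspa5 encodes BiP, the main Hsp70 chaperone of the ER lumen and the sensor that holds the stress receptors inactive. It was at 521.1, 413.2, 511.7 and 408 TPM in labelled KO and 312.7, 254.3, 236 and 223.9 TPM in CTRL. Every labelled KO library was above every control, and the log2 fold change was 0.93 ± 0.15 with an edgeR adjusted p of 0.12, the smallest of all genes. With library quality weights (limma voom) it was called, at 0.92 and an adjusted p of 0.0426.

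Manf encodes a small secreted ER stress protein. It was at 182.2, 148.7, 153.2 and 112.5 TPM in labelled KO and 95.81, 62.67, 68.39 and 72.03 TPM in CTRL, a log2 fold change of 1.03 ± 0.19. Creld2, a disulphide isomerase partner, was at 66.68, 61.9, 51.67 and 48.86 TPM in labelled KO and 41.23, 29.45, 17.76 and 28.14 TPM in CTRL, a log2 fold change of 1.06 ± 0.21. In both genes CTRL replicate 1 was the highest control and still below all labelled KO libraries.

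Among co-chaperones, Hyou1, the large Hsp70-like exchange factor of BiP, was at 67.23, 57.72, 65.58 and 60.26 TPM in labelled KO and 56.82, 39.14, 24.81 and 34.88 TPM in CTRL. Dnajb11, a J-protein partner of BiP, was at 75.06, 66.52, 73.39 and 71.38 TPM in labelled KO and 82.32, 47.38, 40.87 and 42.33 TPM in CTRL. Sdf2l1, which works with Dnajb11, was at 37.72, 36.97, 38.71 and 36.28 TPM in labelled KO and 50.86, 19.24, 15.68 and 19.81 TPM in CTRL. For Dnajb11 and Sdf2l1, CTRL replicate 1 exceeded all labelled KO libraries while the other 3 controls lay below them. The log2 fold change of Sdf2l1 was 0.59 ± 0.28 with all libraries and 0.99 without CTRL replicates 1 and 3.

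Pdia3 and Pdia4 are disulphide isomerases of the ER. Pdia4 was at 116.4, 109.7, 129.7 and 105.8 TPM in labelled KO and 125, 74.38, 51.94 and 61.9 TPM in CTRL. Pdia3 was at 253.6, 248.4, 254.4 and 247.6 TPM in labelled KO and 277.1, 177.3, 146.5 and 161.8 TPM in CTRL. Labelled KO libraries of Pdia3 spanned a few TPM only, and CTRL replicate 1 lay above them. Hsp90b1, the ER form of Hsp90, was at 492.9, 418.1, 502 and 449.6 TPM in labelled KO and 515, 312.8, 263.2 and 306.4 TPM in CTRL.

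In the degradation branch, Sel1l and Syvn1, which form the ubiquitin ligase that clears misfolded ER proteins, had log2 fold changes of 0.54 ± 0.15 and 0.63 ± 0.2. Selenos, a selenoprotein of the same machinery, was at 58.89, 54.92, 57.62 and 50.22 TPM in labelled KO and 45.89, 43.78, 46.36 and 35.55 TPM in CTRL. The 4 members with a lower mean in labelled KO overlapped between the groups. The stress sensors Ern1 and Atf6 had log2 fold changes of -0.26 ± 0.18 and -0.04 ± 0.1. The transcription factor Xbp1 was at -0.12 ± 0.31 and Herpud1, a membrane protein of the degradation complex, at -0.17 ± 0.24.

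CTRL replicate 1, the library highest in acute phase transcripts, was the highest of the 4 controls in 24 of the 30 ER genes. Its mean log2(TPM + 1) over the list was 6.24, inside the labelled KO range of 6.13 to 6.27, while replicates 2, 3 and 4 were at 5.85, 5.59 and 5.64. The second library by acute phase level, replicate 3, was thus the lowest control by ER genes. Without replicate 1 alone, 22 of the 30 were higher at p under 0.05 and the median was 0.48. Without replicates 1 and 3, 20 were higher at p under 0.05 and the median was 0.49. With the acute phase level as a covariate, 19 were higher at p under 0.05 and the median was 0.54. None of the 30 was lower at p under 0.05 in any of these 3 refits. With replicate 2 as the only control, a setting chosen after the data were seen because this library had the lowest acute phase level, the median was 0.5.

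**Figure D2:**
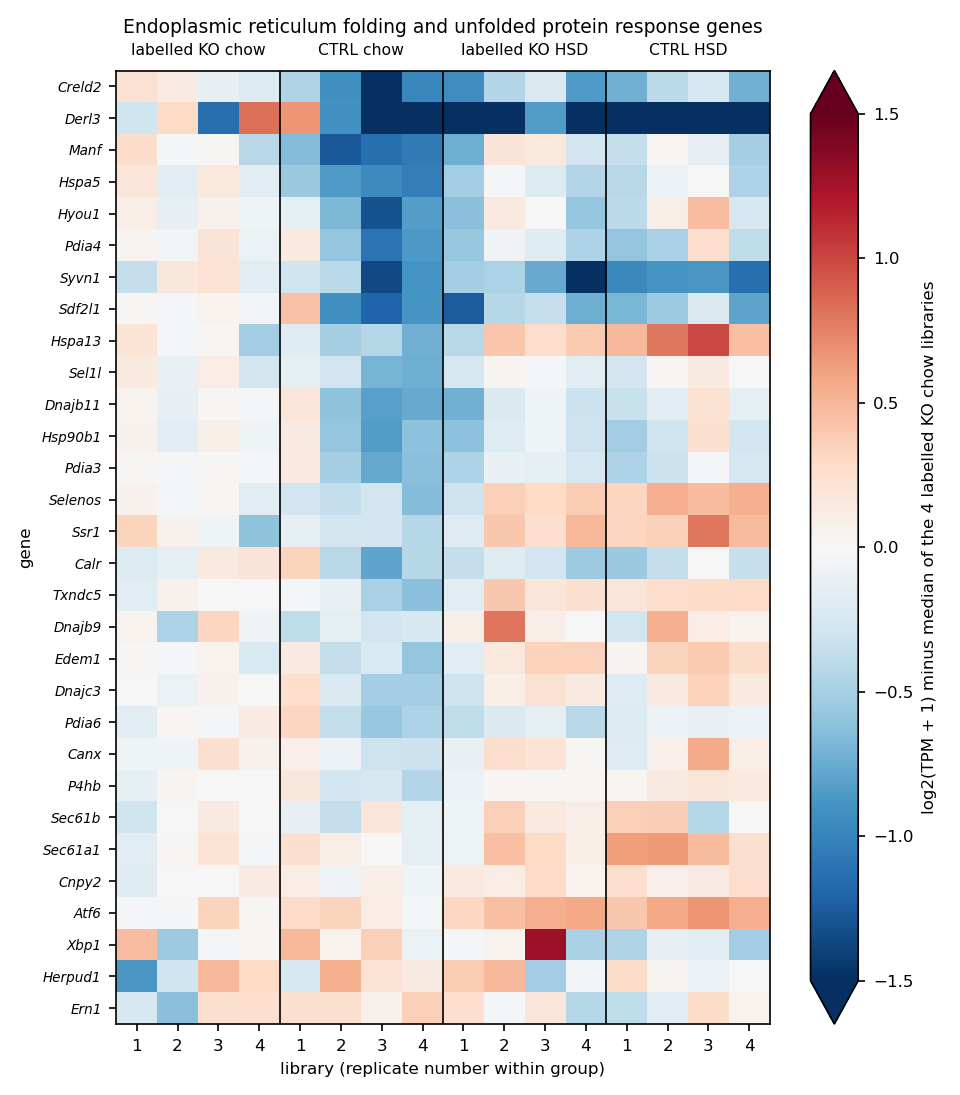
Each row is 1 of the 30 ER folding and unfolded protein response genes and each column 1 liver library, and colour gives log2(TPM + 1) minus the median of the 4 labelled KO chow libraries, with the scale clipped at both ends. CTRL chow replicates 2, 3 and 4 are low in the upper rows, and replicate 1 is closer to the labelled KO libraries.

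On HSD the list had a median log2 fold change of -0.04, with 9 genes higher and 21 lower, and 1 gene in each direction at p under 0.05 (3.22% of all genes were higher and 2.65% lower at that threshold). Hspa5 on HSD was at 322.1, 449.4, 399.1 and 337.6 TPM in labelled KO and 344.4, 434.2, 457.9 and 333.7 TPM in CTRL. Both HSD groups thus lay above the chow controls. The interaction of genotype and diet had p under 0.05 for 10 of the 30 genes, all smaller on HSD, against 8.7% of all genes in either direction. For Hspa5 that interaction had an adjusted p of 0.14 (edgeR), and edgeR called no gene for the interaction.

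Lists of mitochondrial energy metabolism differed by small amounts, with more genes higher than lower at p under 0.05 when all libraries were used. Not all of this held without CTRL replicates 1 and 3. All 13 genes encoded by mitochondrial DNA had a higher mean, 3 at p under 0.05, with a median of 0.3. mt-Co3, a subunit of cytochrome oxidase, was at 22820, 22940, 21010 and 20220 TPM in labelled KO and 12330, 17960, 16520 and 14930 TPM in CTRL. The groups did not overlap, and CTRL replicate 1 was lowest.

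Of 36 nuclear genes for complex I, 11 were higher at p under 0.05 and none lower, and of 37 for complexes III, IV and V, 12 were higher and none lower. Uqcrc2, a core subunit of complex III, was at 173.2, 172.4, 183.4 and 174.4 TPM in labelled KO and 121, 153.3, 134.4 and 142.9 TPM in CTRL. Atp5c1, the central stalk of ATP synthase, was at 249.7, 273.3, 287 and 280.9 TPM in labelled KO and 200.7, 244.8, 224.3 and 213.3 TPM in CTRL. Both had their lowest value in CTRL replicate 1 and their highest control value in replicate 2. The large acute phase share of TPM in replicate 1 enters these values and those of mt-Co3, and its part was not tested. Without CTRL replicates 1 and 3, 3 genes of complex I and 3 of the other complexes were higher at p under 0.05, the latter with 2 lower. Of 32 fatty acid oxidation genes, 5 were higher and 1 lower at p under 0.05 with all libraries, with a median of 0.09. Without CTRL replicates 1 and 3, none of the 32 was higher and 5 were lower at p under 0.05, and the median was -0.09.

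In the list of pyruvate entry and the tricarboxylic acid cycle, which pyruvate kinase feeds, 8 of 28 genes were higher at p under 0.05 and 1 lower, with a median of 0.15. Mpc1, a subunit of the mitochondrial pyruvate carrier, was at 216.6, 238.8, 242 and 227.3 TPM in labelled KO and 142.1, 239, 187.5 and 181 TPM in CTRL. Control replicate 2 was level with labelled KO. Sdha, the flavoprotein of succinate dehydrogenase, was at 218.6, 251.8, 250.8 and 230.7 TPM in labelled KO and 164.7, 211, 188.1 and 200.4 TPM in CTRL, without overlap. The counts for the list were 3 higher and 2 lower without CTRL replicates 1 and 3. Idh3a, a subunit of isocitrate dehydrogenase, was the lower gene, at a log2 fold change of -0.46 ± 0.19.

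**Figure D3:**
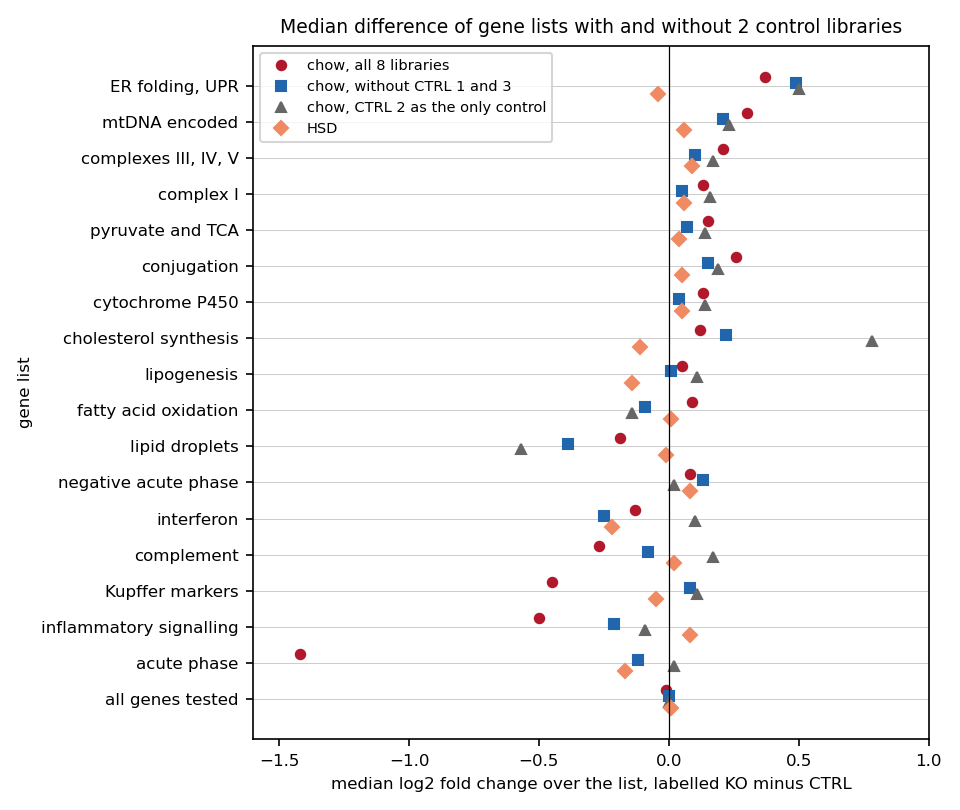
Each row is a gene list and each symbol the median log2 fold change of its tested genes, labelled KO minus CTRL, on chow with all 8 libraries, without CTRL replicates 1 and 3, with CTRL replicate 2 as the only control, and on HSD. The acute phase median goes from -1.42 to -0.12 without those controls, and the ER median from 0.37 to 0.49.

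Glycolysis and lipogenesis, the pathways around pyruvate kinase, held few genes at p under 0.05 on chow. Of 20 glycolytic genes, Pklr and Pgk1 were higher and Aldoa lower at p under 0.05, and the median was -0.04. Of 23 lipogenesis genes, Elovl5 and Me1 were higher, at log2 fold changes of 0.58 ± 0.21 and 0.76 ± 0.33, and the list median was 0.05. With labelled KO replicate 2 left out, 5 lipogenesis genes had a higher mean and 18 a lower one, with a median of -0.09. In that refit 0 were higher and 1 lower at p under 0.05, and 0 in either direction without CTRL replicates 1 and 3. Cholesterol synthesis genes had a higher mean in 17 of 22, with Sc5d and Insig1 at p under 0.05. Without labelled KO replicate 2, 11 were higher and 11 lower, with a median of -0.01 and none at p under 0.05. Without CTRL replicate 2 the split was also 11 and 11, with a median of 0.02.

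Plin5, a lipid droplet coat protein that ties droplets to mitochondria, was at 10.22, 15.03, 22.07 and 23.37 TPM in labelled KO and 39.54, 41.05, 24.51 and 23.03 TPM in CTRL. The groups overlapped at the upper labelled KO and lower control libraries. Plin5 and Cidec, the droplet fusion protein, were the 2 of 16 lipid droplet genes at p under 0.05, both lower, and 4 were lower without CTRL replicates 1 and 3. Akt1, a kinase of insulin signalling, was at 11.32, 12.18, 14.48 and 12.4 TPM in labelled KO and 25.65, 19.63, 19.34 and 18.55 TPM in CTRL, without overlap. Its log2 fold change was -0.69 ± 0.19, and -0.55 without those controls.

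In detoxification, 6 of 28 conjugation genes were higher and 1 lower at p under 0.05, and 4 of 25 cytochrome P450 genes were higher and 1 lower. CTRL replicate 1 was below all labelled KO libraries in 15 of the conjugation and 11 of the cytochrome P450 genes. The counts without CTRL replicates 1 and 3 were 2 higher and 0 lower for conjugation, and 2 higher and 1 lower for cytochrome P450. The medians went from 0.26 to 0.15 and from 0.13 to 0.04. Cyp2c29, an epoxygenase, was at 1329, 1689, 1188 and 1031 TPM in labelled KO and 554.1, 1101, 838.6 and 767.8 TPM in CTRL. Labelled KO replicate 4 overlapped control replicate 2. Cyp2b10, the best-known target of the receptor CAR, was at 1.957, 2.486, 0.5262 and 0.7215 TPM in labelled KO and 0.5608, 5.607, 4.541 and 5.638 TPM in CTRL. The control that overlapped labelled KO was replicate 1, and Cyp2b10 was also lower in labelled KO on HSD, where the groups did not overlap.

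Interferon-stimulated genes had a lower mean in labelled KO in 23 of 28, 4 of them at p under 0.05, with a median of -0.13. CTRL replicate 4 was above all labelled KO libraries in 21 of the 28, and without it 15 were lower and 13 higher, with a median of -0.02. Zbp1, a nucleic acid sensor, was at 3.445, 2.645, 2.51 and 4.505 TPM in labelled KO and 9.326, 5.901, 5.571 and 7.908 TPM in CTRL, without overlap. The 4 at p under 0.05 with all libraries were Zbp1, Stat2, Oas2 and Ifi27l2a. Genes of the circadian clock, which drive many liver transcripts by time of day, gave 0 of 16 core and 0 of 12 output genes at p under 0.05 on chow. On HSD 12 of the 16 and 10 of the 12 were at p under 0.05.

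A further rule named the 12 higher and 12 lower genes with the smallest p among expressed genes whose chow groups did not overlap, some of which belong to the lists above. Acad8, the isobutyryl-CoA dehydrogenase of valine breakdown, was at 22.73, 26.52, 24.56 and 25.72 TPM in labelled KO and 19.27, 20.02, 16.59 and 16.54 TPM in CTRL. Ces1e, a carboxylesterase, was at 106.9, 117.9, 149.4 and 121.6 TPM in labelled KO and 42.22, 77.44, 63.6 and 56.43 TPM in CTRL. The rule chose both for groups that do not overlap, and Ces1e belongs to a cluster of similar genes whose reads may be shared. Further higher genes were Lactb, Prl8a1, Snx4, Cyb5b, Sh3pxd2a and Tmem254c, with log2 fold changes of 0.46 to 0.9. Tmem254c was higher on chow, at 0.75, but lower on HSD, at -0.64, and its groups did not overlap on either diet.

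Fn1, encoding fibronectin, was at 127.4, 116.6, 168.3 and 122 TPM in labelled KO and 286.5, 212.3, 236.2 and 206 TPM in CTRL. Lrp1, the endocytic receptor for remnants and protease complexes, was at 18.93, 22.2, 31.68 and 33.79 TPM in labelled KO and 69.07, 40.58, 48.69 and 42.17 TPM in CTRL. Tcirg1, a subunit of the vacuolar proton pump, had a log2 fold change of -1.06 ± 0.24 on chow and -0.63 on HSD, and its groups did not overlap on either diet. Further lower genes were Slc6a9, Lrg1, Ttll4, Dnmbp, Garem1, Foxp4, C4b and Mdn1.

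Without CTRL replicate 2, the control with the lowest acute phase level, edgeR called 6 genes: Bag1 higher and C4b, Cdhr5, Fn1, Lrg1 and Ly6e lower. Bag1, a co-chaperone of Hsp70, was at 56.38, 66.87, 66.71 and 70.52 TPM in labelled KO and 47.91, 60.29, 43.39 and 43.99 TPM in CTRL. C4b, Cdhr5, Fn1, Lrg1 and Ly6e all had their highest chow value in CTRL replicate 1 and their next highest in replicate 3. Cdhr5 was at 14.73, 18.36, 14.89 and 25.92 TPM in labelled KO and 36.86, 24.03, 31.64 and 28.04 TPM in CTRL. For C4b and Ly6e the log2 fold changes of -0.94 and -0.87 became -0.4 and -0.41 without CTRL replicates 1 and 3. Those of Cdhr5 and Fn1 went from -0.69 and -0.76 to -0.54 and -0.6.

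**Figure D4:**
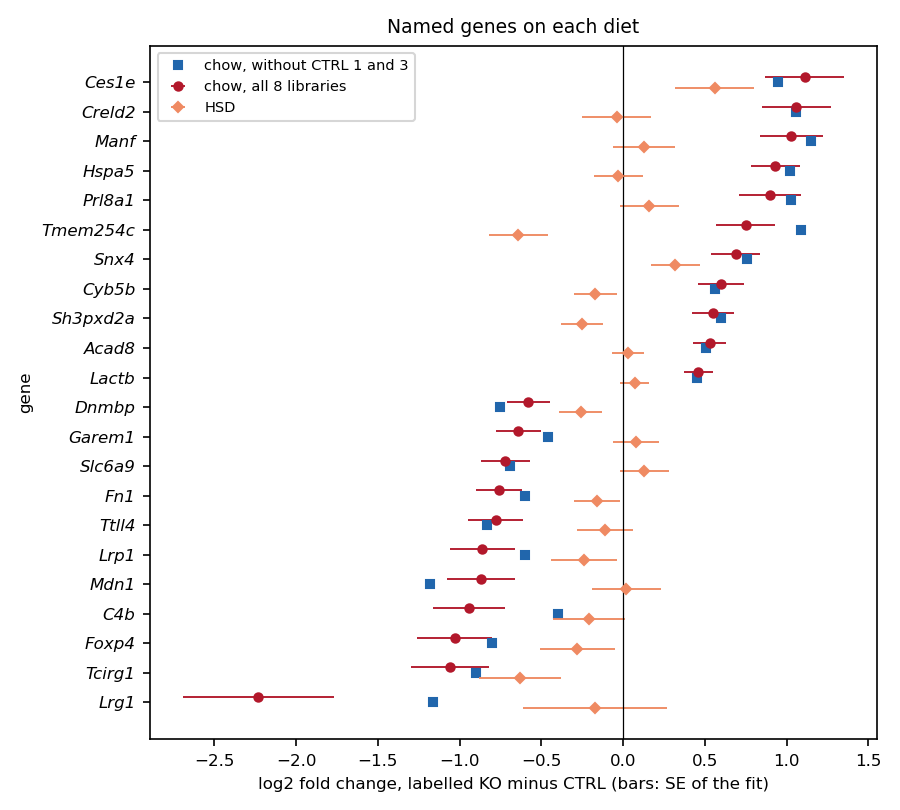
Each row is a gene chosen for its small p and non-overlapping chow groups, with its log2 fold change (labelled KO minus CTRL) and SE on chow and on HSD, and its value on chow without CTRL replicates 1 and 3. The chow values with and without those controls keep their sign in each gene drawn, and among these Lrg1 goes from -2.23 to -1.16.

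Elovl3, a fatty acid elongase with higher levels in male liver, went in opposite directions on the 2 diets. On chow it was at 334.3, 300, 262.6 and 270.9 TPM in labelled KO and 140.5, 122.7, 104.3 and 211.7 TPM in CTRL. The HSD values of Elovl3 were 191, 118.7, 119.3 and 161.8 TPM in labelled KO and 377.6, 216.1, 473.4 and 281.6 TPM in CTRL. The groups did not overlap on either diet, and the interaction had an adjusted p of 0.132 (edgeR). A score of clock gene levels also separated the HSD groups, at 2.08 to 3.52 in labelled KO and -2.69 to -0.01 in CTRL. On chow the score overlapped, at 0.86 to 2.09 in labelled KO and 0.47 to 2.84 in CTRL. The part of this clock difference in Elovl3, and in the other HSD comparisons given here, was not tested. Of the 702 genes higher on chow at p under 0.05, 372 (53%) were higher on HSD, as were 51.5% of all genes. Of the 675 lower, 365 (54.1%) were lower there, as were 48.5% of all genes.

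**Figure D5:**
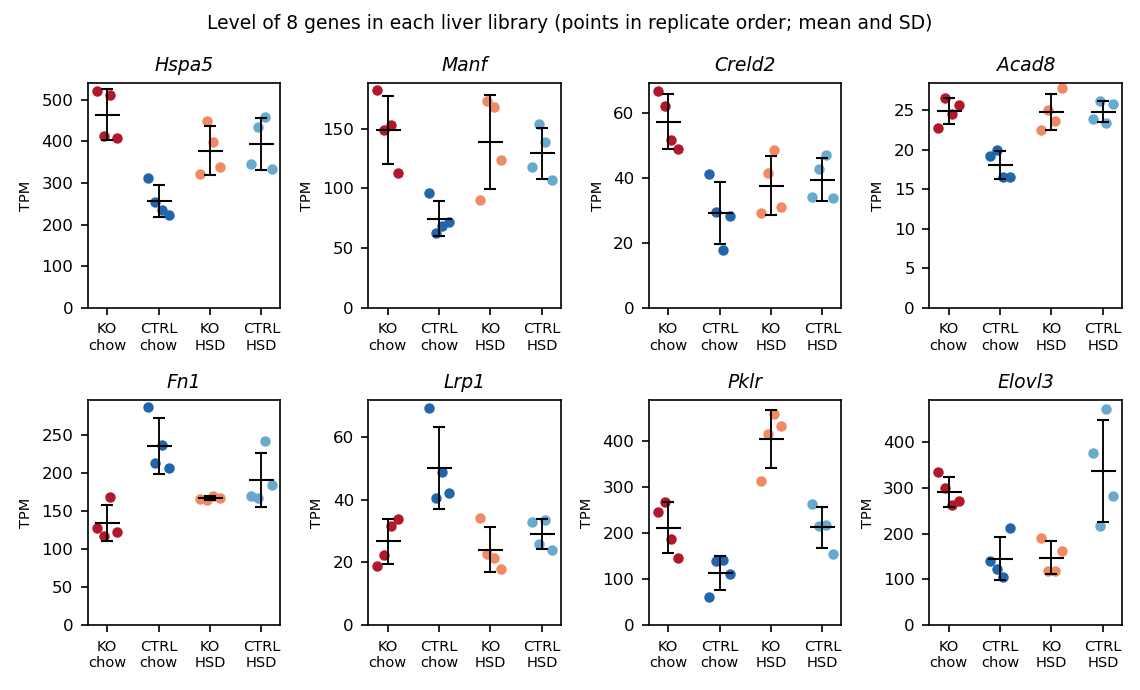
TPM of 8 genes in each of the 16 liver libraries by group, with points in replicate order, the mean as a bar and the SD as an error line. Hspa5, Manf, Creld2, Acad8, Pklr and Elovl3 are higher and Fn1 and Lrp1 lower in all 4 labelled KO chow libraries than in all CTRL chow libraries.

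For the whole chow comparison, 702 of the 702 higher genes kept their sign without CTRL replicates 1 and 3, and 293 of them stayed at p under 0.05. Of the 675 lower genes, 669 kept their sign and 307 stayed at p under 0.05, while 101 lost more than 50% of their log2 fold change, against 27 of the higher genes. Of the DESeq2 calls, 79 of 87 higher and 48 of 66 lower genes stayed at p under 0.05 with the same sign. These refits share the labelled KO libraries and 2 controls with the full comparison, so the counts are no independent repeat. Gene length also differed between the sets: the median log2 length relative to the typical gene was -0.22 for the higher and 0.38 for the lower genes. The ER list kept a median of 0.5 with the length trend removed and without CTRL replicates 1 and 3, a setting chosen after the data were seen.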

How the data were processed

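Liver RNA was sequenced from 16 mice, 4 per group, of a series of 64 libraries. Per the submitters' processing notes, the authors used kallisto and the GRCm38 build; no version or annotation was stated in the labels read. The authors deposited a table of estimated counts and a table of TPM per gene, both used here. The members and gene lists were chosen with earlier results of these data known. Estimated counts were rounded, genes were kept by filterByExpr (minimum count 10, 11259 of 19521 genes), and edgeR 4.0.16 (TMM, robust quasi-likelihood F test, R 4.3.3) was fitted to 4 group means over the 16 libraries, with Benjamini-Hochberg adjustment over all tested genes and a threshold of 0.05. Fold changes are labelled KO minus CTRL, and TPM served for levels and overlap. The SE of an edgeR log2 fold change was its absolute value divided by the square root of F from the quasi-likelihood test. DESeq2 1.42.0 and limma 3.58.1 were alternatives, with other scalings, filters, pseudocounts of 1 and 0.1, covariates and left-out libraries. The tests were tried on simulated data. Named genes were Pklr and Pkm; the 12 higher and 12 lower genes with the smallest p among non-overlapping, named genes of mean log2 CPM of at least 1; up to 6 genes by p of each described list, all members for the acute phase and ER lists; and genes called without 1 library. Some genes that this rule names are not reported here. The oxidative phosphorylation and mitochondrial lists were taken by symbol. Replicate numbers follow accession order and pair nothing. Promoters came from RefSeq (GRCm38.p6).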

Additional observations from a re-analysis of the deposited data

Results flagged for a closer look

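Among 318 groups of 4 libraries checked for a lone extreme value by Dixon's ratio on log2(TPM + 1), 11 passed. That is a smaller share than the about 1 in 20 that chance flags. Levels beside the ratios are in plain TPM. CTRL chow replicate 1 was the high value for Il1rn (ratio 0.915, 11.82 TPM against at most 2.367 in the others), Cd68, a macrophage marker (0.871, 10.8 TPM against at most 5.505), and Crp (0.924, 649.2 TPM against at most 339.6). It was the low value for Cyp2b10 (0.875, 0.5608 TPM against at least 4.541). CTRL chow replicate 2 was high for Ugt2b36, a glucuronosyltransferase (0.949, 441.3 TPM against at most 330.7). Labelled KO chow replicate 1 was low for Mt1 (0.877, 2.984 TPM against at least 15.15), Apoh (0.846, 1996 TPM against at least 2346) and Ndufa9, a complex I subunit (0.93, 80.77 TPM against at least 93.24). Labelled KO chow replicate 3 was high for Atf6 (0.885, 17.39 TPM against at most 13.74). Bdh1, an enzyme of ketone body metabolism, had a low value in labelled KO chow replicate 1 (0.846, 87.78 TPM against at least 120.5) and a high value in CTRL chow replicate 2 (0.847, 114.3 TPM against at most 87.63).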

How the results depend on the processing

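No paired analysis was possible because the replicate numbers were given in accession order and the titles of the groups share no number. The Pklr difference in mean log2 TPM was 0.94 (exact permutation p = 0.0286), 0.67 to 1.1 with 1 library left out and 0.74 without CTRL chow replicates 1 and 3, where 15 arrangements cannot give a p under 0.05 two-sided (p = 0.133). On chow, where edgeR called 0 genes, DESeq2 called 153, voom with library weights 1, CTRL chow replicate 2 as the only control 2, and fits without 1 library 0 to 6, the 6 without CTRL chow replicate 2. On HSD, edgeR called 8 genes, DESeq2 88 and fits without 1 library 0 to 9. For the interaction, edgeR called 0, DESeq2 70, fits without 1 library 0 to 5, and the fit without CTRL chow replicates 1 and 3 called 2. The cause of these differences was not tested. Of the gene values under all alternatives, 3198 kept their direction and side of the threshold, 57 passed it newly and 58 reversed. With CTRL chow replicate 2 as the only control, chosen after seeing the data and with the spread taken from the other groups, the reversed log2 fold changes were Ly6e 0.21, Saa1 0.11, Saa4 0.15, Orm1 0.67, Orm2 0.77, Orm3 0.27, Hpx 0.1, Crp 0.32, Apcs 0.66, Fgb 0.02, Fgg 0.12, Serpina3m 0.13, Itih3 0.47, Cp 0.31, Xbp1 0.14, Fgl1 0.01, Hc 0.16, C2 0.07, Clec4f 0.11 and Csf1r 0.11. Without CTRL chow replicates 1 and 3 they were Orm3 0.12, Crp 0.25, Apcs 0.33, Fgb 0.07, Fgg 0.15, Serpina3m 0.42, Itih3 0.26, Cp 0.16 and Xbp1 0.12. With the length trend also removed, again chosen after seeing the data, they were Orm3 0.09, Crp 0.24, Apcs 0.33, Fgb 0.1, Fgg 0.15, Serpina3m 0.41, Itih3 0.27, Cp 0.18, Xbp1 0.12 and Atf6 0.03. With the length trend removed from all libraries they were Atf6 0.01 and Cnpy2 -0.01. With the clock score as a covariate Cnpy2 was -0.01, with library weights Crp was 0.05, Serpina3m 0.09 and Cnpy2 0, and with limma on log2(TPM + 1) or log2(TPM + 0.1) Sec61a1 and Cnpy2 were both -0.04. With 1 chow library left out, the genes that reversed in at least 1 refit ranged as follows: Crp -0.16 to 0.22, Fgg -0.48 to 0, Serpina3m -0.38 to 0.22, Xbp1 -0.39 to 0.04, Sec61b -0.01 to 0.23, Sec61a1 -0.01 to 0.07 and Cnpy2 -0.05 to 0.05. Gene values of the acute phase list were not compared with the acute phase score as a covariate, since the score is built from its members. The labelled KO chow libraries were all shallower than the controls, and the effect of depth on single genes was not tested.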
